A study of Mus musculus with 6 samples.

Results

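Cytotoxic lymphocytes, the natural killer (NK) cells and T cells that kill other cells, store perforin and granzymes in granules and decide through surface receptors when to release them. Perforin opens the target membrane, granzymes are serine proteases that enter through it, and receptors such as NKG2D recognise stress-induced ligands on the target. In mouse epidermis the resident dendritic epidermal T cells, which carry a gamma delta T cell receptor, are known to have NKG2D and to be capable of killing. The 10 genes described here are Nkg7, Gzma, Gzmb, Gzmc and Prf1 of the granule, the receptor genes Klrd1, Klrk1 and Ncr1, the adaptor gene Hcst and the death ligand gene Fasl. They were chosen by name, and each name matched exactly 1 of the 54532 genes of the deposited count table.

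The counts come from Smart-seq2, a method that makes full-length cDNA from little RNA, and were taken from 6 libraries of dorsal epidermis, dissociated from C57BL/6 mice that were 4 weeks old. In the NCAM-enriched group (n = 3, label NCAM_enriched) were cells selected for NCAM, the surface protein used to isolate Merkel cells, first with anti-PSA-NCAM beads and then by sorting NCAM+ DAPI- events. The bulk skin group (n = 3, label Total_skin_DAPI_neg) held DAPI- epidermal cells sorted without NCAM selection. Male and female mice of the same strain were used, no treatment is given for either group, and a library held 500 sorted events. The comparison asks how far these genes went with the bulk epidermis and how far with the NCAM-selected cells.

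Library totals ran from 1343190 to 3798136 counts in the NCAM-enriched group and from 3333753 to 4481830 in bulk skin, so that 1 count was worth 0.216 to 0.773 normalised CPM, counts scaled to the adjusted library size. Merkel cell markers, summed over 7 genes, reached 400 to 1293 CPM in the NCAM-enriched libraries and 127 to 168 in bulk skin, and 4 of the 7 (Atoh1, Sox2, Krt20 and Pou4f3) were called higher, though 0 were without any 1 bulk skin library and 2 without NCAM-enriched replicate 1. Suprabasal keratinocyte markers were also high there, at 11371 to 24258 CPM against 809 to 1125 CPM in bulk skin. One NCAM-enriched library, replicate 1, stood apart in its group with 1968 CPM of mast cell markers against 3.12 and 3.86 CPM in the others. Bulk skin replicates 1, 2 and 3 held 445, 2094 and 1834 CPM of these markers. NCAM-enriched replicate 1 held no count of any of the 10 genes. Nothing in the labels or methods says that replicates came from separate animals, so p-values measure only the spread between these libraries, which may be technical.

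The granzyme counts of bulk skin came almost entirely from 1 gene. Gzmc, which encodes granzyme C, supplied nearly all granzyme counts of bulk skin, while Gzma had no count in any of the 6 libraries and Gzmb had 1. Gzmc and Gzmb are neighbours in the granzyme cluster of chromosome 14, and reads of 50 bases had to tell them apart. The closest stretch of 50 bases between their coding sequences, shown because the split of reads depends on it, differed at 1 position, which is in capitals in both (GRCm38, minus strand, Gzmc at chr14:56232441-56232490 and Gzmb at chr14:56260384-56260433).
Gzmc: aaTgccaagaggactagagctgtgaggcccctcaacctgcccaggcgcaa
Gzmb: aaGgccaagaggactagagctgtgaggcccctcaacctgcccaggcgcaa
Of the 698 windows of 50 bases in the Gzmc coding sequence, 9 (1.29%) came within 2 mismatches of Gzmb, and no window of 50 bases from a Gzmb transcript occurred exactly in a transcript of any other gene. For Gzma the closest window differed from Gzmc at 16 positions. Over whole transcripts 95.9% of the Gzmc windows were unique to it, and the remaining 35 of 845 were shared with Gzmd, Gzme or Gzmg. Reads from those shared stretches are uncertain. For each of the other members, every window was unique.

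The sequences before the Gzmc and Gzmb start sites, shown because these neighbours differed so widely in counts, held partly the same and partly different short motifs. A link between such motifs and the counts was not tested. The 250 bases upstream of each RefSeq start are printed (GRCm38.p6, minus strand, Gzmc at chr14:56234658-56234907 and Gzmb at chr14:56262335-56262584), with matches in capitals.
Gzmc: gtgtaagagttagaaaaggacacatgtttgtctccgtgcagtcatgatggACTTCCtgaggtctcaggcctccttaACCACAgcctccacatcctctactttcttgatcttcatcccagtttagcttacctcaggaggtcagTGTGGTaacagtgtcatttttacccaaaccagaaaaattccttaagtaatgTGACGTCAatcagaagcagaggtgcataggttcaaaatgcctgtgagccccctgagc
Gzmb: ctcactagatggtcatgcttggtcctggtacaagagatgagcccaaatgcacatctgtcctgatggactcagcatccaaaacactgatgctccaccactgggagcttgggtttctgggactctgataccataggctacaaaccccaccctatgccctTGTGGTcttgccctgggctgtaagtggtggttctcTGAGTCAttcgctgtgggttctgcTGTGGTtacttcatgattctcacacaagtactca
Both strands were searched for 6 motifs, and none of the capitalised matches overlapped another. The Runx letters TGTGGT were in 14.05% of the 32851 promoter windows of this length, the T-box letters AGGTGT in 11.8% and the ETS letters GGAAGT in 19.7%. The AP-1 letters TGANTCA were in 6.75%, the CRE letters TGACGTCA in 1.55% and the TATA letters TATAAA in 12.4% of them. Upstream of Gzmc there were 2 Runx matches, at 174 and 108 bases before the start, 1 ETS match at 200 and 1 CRE match at 57. Upstream of Gzmb there were 2 Runx matches, at 93 and 34 bases, and 1 AP-1 match at 58. Among the 9 members with a window in the RefSeq table, Runx letters were found for 7 (Gzma, Gzmb, Gzmc, Klrk1, Ncr1, Nkg7 and Prf1), T-box letters for 3 (Gzma, Nkg7 and Prf1) and ETS letters for 4 (Fasl, Gzmc, Hcst and Prf1). Among these 9, AP-1 letters were found for Gzmb, CRE letters for Gzmc and TATA letters for 0. In the granzyme cluster CRE letters were also found for Gzmf and Gzmg, at 82 and 77 bases before their starts, and Runx and ETS letters for Gzmd, Gzme, Gzmf and Gzmg, all of which had no count in any library. Gzma, which had no count, thus held Runx and T-box letters as Nkg7 and Prf1 did. Such matches are letters in a window and no evidence of binding.

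Together the 10 genes held 0, 0 and 2 counts in NCAM-enriched replicates 1, 2 and 3, and 5188, 6881 and 5472 counts in bulk skin. In normalised units bulk skin held 1611, 1487 and 1500 CPM of them. Nkg7 made up 54.8% of the 17541 bulk counts. The 2 NCAM-enriched counts, 1 of Nkg7 and 1 of Klrd1, both lay in replicate 3, the deepest library of its group. Counting error alone allows up to 3 counts over the group, or 0.448 CPM, for a gene with none.

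Of the 10 genes, 6 had enough counts to be tested (Nkg7, Gzmc, Prf1, Klrd1, Klrk1 and Hcst), and all 6 were called lower in the NCAM-enriched group by edgeR at an adjusted p of at most 0.05. Over all 13157 genes tested, 1.55% were called lower and 1.04% higher. The filter asks for counts in 1 of the groups, so a gene with almost none in the NCAM-enriched group passed it only through bulk skin. Gzmb, Ncr1 and Fasl had counts but too few to be tested, and Gzma had none. Among the 6 tested members, each NCAM-enriched library lay below each bulk skin library, an arrangement seen for 19.3% of all genes tested.

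**Figure D1:**
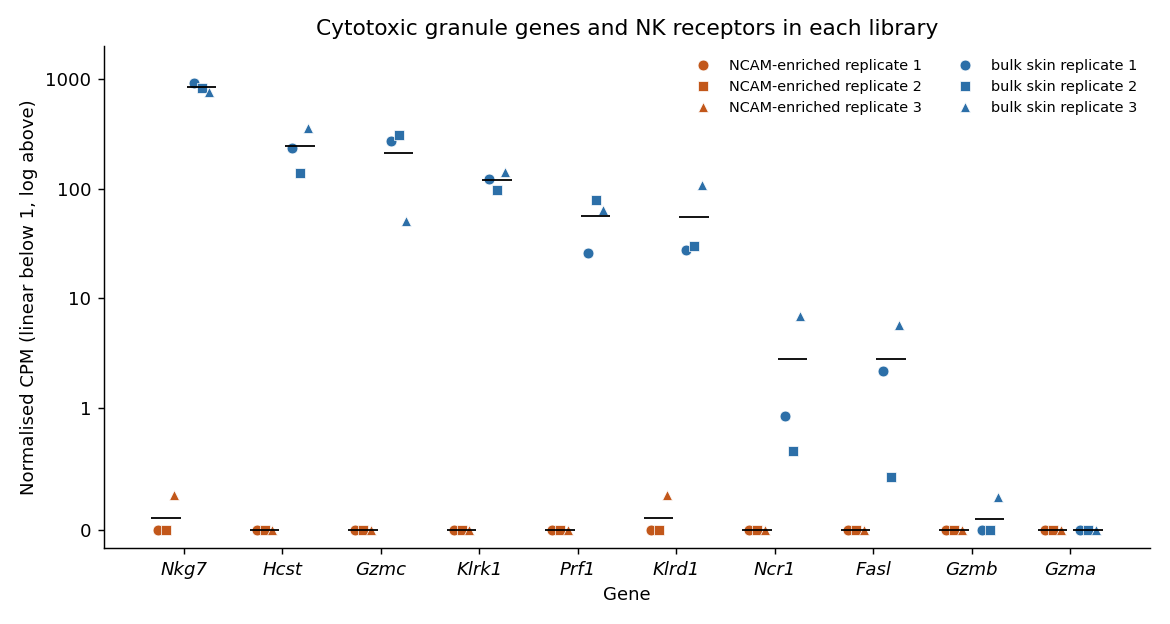
Normalised CPM (vertical axis, linear below 1 and logarithmic above) of the 10 genes in each of the 6 libraries, with NCAM-enriched libraries in orange, bulk skin libraries in blue, a symbol for each replicate and a bar at each group mean. NCAM-enriched points lie at 0 but for 1 count each of Nkg7 and Klrd1, whereas bulk skin means run from 840 CPM for Nkg7 to 0 for Gzma.

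Nkg7 (ENSMUSG00000004612, chr7:43437073-43438249, plus strand) encodes a granule membrane protein linked to the release of granules and was the most abundant of the 10. It had 0, 0 and 1 counts in the NCAM-enriched libraries and 2978, 3855 and 2783 in bulk skin, where its level was 925, 833 and 763 CPM. These bulk levels were the most even of all members, with the highest 1.21 times the lowest. The mean was 840 ± 81.0 CPM (SD, n = 3) in bulk skin, and the fitted log2 fold change, NCAM-enriched minus bulk skin, was -12.15 ± 0.69 (SE, edgeR adjusted p = 0.000494, at most 0.00758 over the alternatives). Counts pooled over each group gave a ratio of 5606 (95% exact counting interval 1006 to 221428). That ratio rests on the single count of replicate 3, without which bulk skin was at least 886-fold higher.

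Prf1 (ENSMUSG00000037202, chr10:61297833-61304680, plus strand) encodes perforin, the pore-forming protein of the granule. It was at 0 in the 3 NCAM-enriched libraries and had 84, 362 and 234 counts in bulk skin, or 26.1, 78.3 and 64.2 CPM. Bulk skin replicate 1 was the low one, 3.0 times below replicate 2, and still far above each NCAM-enriched library. Bulk skin averaged 56.2 ± 26.99 CPM. The pooled Prf1 counts of bulk skin, scaled by library size, were at least 132-fold above the 3 counts that a group of zeros allows. Without NCAM-enriched replicate 3 this bound was at least 62.6-fold. The fitted log2 fold change was -10.41 ± 1.39 (edgeR adjusted p = 0.0196, 4.21e-09 to 0.161 over the alternatives). Among the fits that left out 1 library, the call was lost without each of the 3 bulk skin libraries.

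Gzmc (ENSMUSG00000079186, chr14:56231441-56234656, minus strand) had 0 counts in each NCAM-enriched library and 870, 1424 and 185 in bulk skin. At 270, 308 and 50.7 CPM, its bulk level was 6.07 times lower in replicate 3 than in replicate 2. Bulk skin averaged 210 ± 139 CPM, and its pooled counts, scaled by library size, were at least 482-fold above the floor of 3 counts. This bound was at least 228-fold without NCAM-enriched replicate 3 and at least 343-fold to 653-fold when a bulk skin library was left out. The fitted log2 fold change was -12.31 ± 1.39 (edgeR adjusted p = 0.0140, up to 0.101 over the alternatives), with the call lost without bulk skin replicate 1 (adjusted p = 0.101) or replicate 2 (adjusted p = 0.0784).

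Within the granzyme family of 10 genes, Gzmc took 870 of 870 counts in bulk skin replicate 1 (100%, Wilson 95% interval 99.6 to 100), 1424 of 1436 in replicate 2 (99.2%, 98.5 to 99.5) and 185 of 187 in replicate 3 (98.9%, 96.2 to 99.7). The mean share was 99.4 ± 0.562% (SD, n = 3), and 99.6 ± 0.346% after division by exonic length. With so few counts of the other granzymes this share lies near its ceiling and says little about the level of Gzmc. What little else there was came from Gzmm, which encodes granzyme M, with 0, 12 and 1 counts, and from Gzmb (ENSMUSG00000015437, chr14:56258838-56262260, minus strand), the classical apoptosis-inducing granzyme, with a single count in replicate 3. Gzmm also had 27 counts in NCAM-enriched replicate 1 and none in the other libraries of that group.

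Gzma (ENSMUSG00000023132, chr13:113093825-113100981, minus strand), which encodes the tryptase-like granzyme A, had 0 counts in all 6 libraries. Its 0 of 870, 1436 and 187 granzyme counts in bulk skin allow a share of up to 0.345%, 0.209% and 1.604%. Per exonic length, Gzmc was at least 930-fold above Gzma over the bulk skin group, and at least 326-fold, 534-fold and 69.4-fold above it in the separate libraries. Against the 1 count of Gzmb the pooled ratio per length was 3982 (95% exact counting interval 714 to 157340). Gzmd, Gzme, Gzmf, Gzmg, Gzmk and Gzmn had no count in any library. Intervals and limits cover counting error only, since reads are PCR copies without molecular identifiers.

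**Figure D2:**
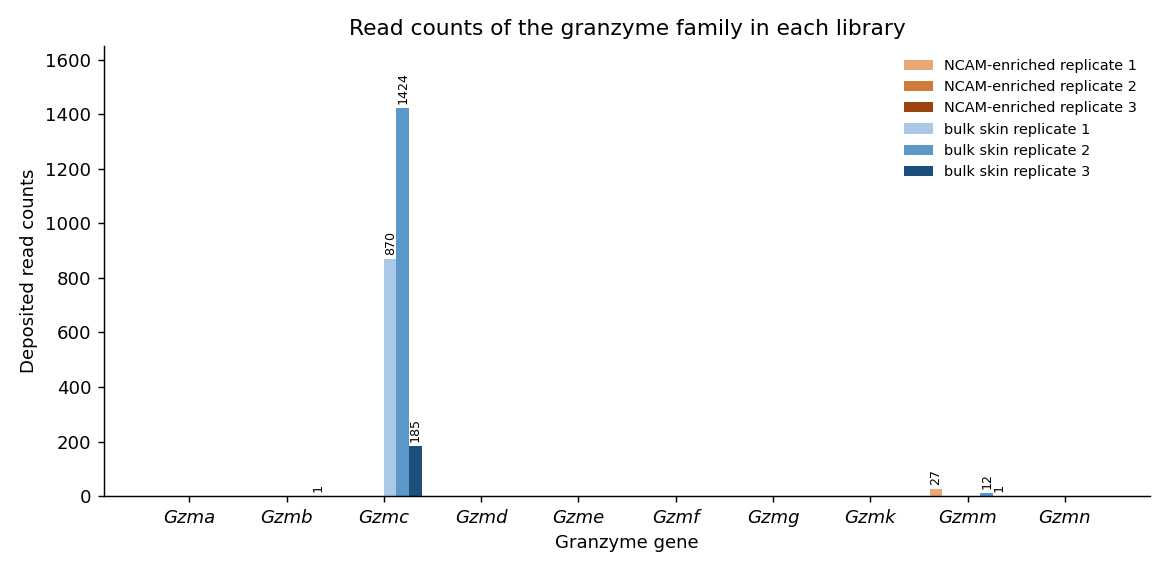
Deposited read counts (vertical axis) of the 10 granzyme genes in each of the 6 libraries, with orange bars for NCAM-enriched and blue bars for bulk skin libraries and each count above 0 written on its bar. Gzmc stands alone with 870, 1424 and 185 counts in bulk skin, and only Gzmm and Gzmb have any other count.

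Among the receptor genes, Klrk1 (ENSMUSG00000030149, chr6:129610323-129623864, minus strand), which encodes the activating receptor NKG2D, had 0 counts in the NCAM-enriched libraries and 397, 448 and 520 in bulk skin. Its bulk levels of 123, 96.8 and 143 CPM lay close together, the highest 1.47 times the lowest. Bulk skin averaged 121 ± 23.0 CPM. Its pooled counts were at least 265-fold above the floor, or at least 126-fold without NCAM-enriched replicate 3. The fitted log2 fold change was -11.52 ± 0.94 (edgeR adjusted p = 0.00494, up to 0.0655 over the alternatives), and the call was lost without bulk skin replicate 1 (adjusted p = 0.0655) or replicate 3 (adjusted p = 0.0608).

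Hcst (ENSMUSG00000064109, chr7:30417712-30419854, minus strand) encodes DAP10, the adaptor that carries the signal of NKG2D into the cell. It had no NCAM-enriched count and 760, 648 and 1307 counts in bulk skin, or 236, 140 and 358 CPM. Replicate 3 was the highest, 2.56 times replicate 2. The mean was 245 ± 109 CPM. Pooled bulk skin counts were at least 528-fold above the floor, or at least 250-fold without NCAM-enriched replicate 3. The fitted log2 fold change of -12.54 ± 0.97 (edgeR adjusted p = 0.00465, at most 0.0483 over the alternatives) kept its call in all 14 alternatives, as did that of Nkg7 and of no other member. Hcst lies tail to tail with Tyrobp, the gene of the related adaptor DAP12, which ends at chr7:30417585 on the plus strand, and they share no exonic base.

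Klrd1 (ENSMUSG00000030165, chr6:129591782-129598775, plus strand) encodes CD94, which pairs with NKG2 chains to read class I molecules. It had 0, 0 and 1 counts in the NCAM-enriched libraries and 89, 139 and 396 in bulk skin. The bulk levels of 27.6, 30.0 and 109 CPM put replicate 3 well above replicates 1 and 2. Bulk skin averaged 55.4 ± 46.0 CPM, and the pooled ratio over the NCAM-enriched group was 364 (95% exact counting interval 65.0 to 14390). It was 195 without bulk skin replicate 3 and at least 57.5-fold without NCAM-enriched replicate 3. The fitted log2 fold change was -8.27 ± 1.26 (edgeR adjusted p = 0.0178, up to 0.192 over the alternatives), and the call was lost without any 1 bulk skin library.

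The remaining members were near the limit of detection. Ncr1 (ENSMUSG00000062524, chr7:4337724-4345164, plus strand), which encodes the NK receptor NKp46, had no NCAM-enriched count and 3, 3 and 25 counts in bulk skin, or 0.931, 0.649 and 6.85 CPM (mean 2.81 ± 3.504). Bulk skin was at least 6.02-fold above the floor, but this was at least 1.71-fold without its replicate 3, 9.11-fold without its replicate 2 and 2.86-fold without NCAM-enriched replicate 3. Fasl (ENSMUSG00000000817, chr1:161780689-161788495, minus strand), which encodes the ligand of the death receptor Fas, had no NCAM-enriched count and 7, 2 and 21 counts in bulk skin, or 2.17, 0.432 and 5.76 CPM (mean 2.79 ± 2.72). It was at least 5.83-fold above the floor, and at least 2.56-fold without bulk skin replicate 3, 9.11-fold without replicate 2 and 2.76-fold without NCAM-enriched replicate 3. In a fit of all genes with at least 1 count neither passed the test (edgeR adjusted p = 0.318 for Ncr1 and 0.320 for Fasl), and an exact two-sided permutation test gave p = 0.1 for each, the smallest that 3 against 3 libraries can give. The same permutation test also gave p = 0.1 for each of the 6 tested members.

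Leaving out a bulk skin library cost more calls than leaving out an NCAM-enriched one. Without bulk skin replicate 1 the called members were Nkg7 and Hcst, 2 of 6, against 0.0858% of all genes called lower. Without replicate 2 they were Nkg7, Klrk1 and Hcst, against 0.141%, and without replicate 3 they were Nkg7, Gzmc and Hcst, against 0.109%. All 6 were called without NCAM-enriched replicate 1, 2 or 3, where 1.57%, 4.12% and 4.9% of all genes were called lower, and also by DESeq2, which called 7.1% of all genes lower, and by limma-voom, which called 6.45%. With the replicate number as a block, Prf1 missed the threshold (edgeR adjusted p = 0.0574) and the other 5 were called, against 0.699% of all genes. No alternative changed the direction of any of the 6, but fitted fold changes of genes at or near 0 in a group vary with the tool and settings. Over the alternatives the log2 fold change ran from -14.28 to -11.22 for Nkg7, from -12.73 to -9.38 for Gzmc and from -10.75 to -7.76 for Prf1. It ran from -10.35 to -6.99 for Klrd1, from -11.68 to -8.93 for Klrk1 and from -12.72 to -9.86 for Hcst.

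Per kilobase of exonic sequence, which allows levels of different genes to be compared, the order in bulk skin was Nkg7 at 919 ± 88.7 CPM per kb, Hcst at 339 ± 152, Gzmc at 234 ± 155, Klrd1 at 43.3 ± 35.9, Prf1 at 21.7 ± 10.4 and Klrk1 at 16.8 ± 3.20. Ncr1 at 1.83 ± 2.28 and Fasl at 1.44 ± 1.40 followed, then Gzmb at 0.0636 ± 0.110 and Gzma at 0. Nkg7 lay above Hcst in each bulk library, and Klrk1 above Ncr1. Other neighbours changed order between libraries, so no order is claimed for them. Gzmc lay above Hcst in replicate 2 and Prf1 above Klrd1 in replicate 2. In replicate 1 Klrk1 lay above Prf1 and Fasl above Ncr1. Gzmc stood at 302, 344 and 56.7 CPM per kb in replicates 1, 2 and 3, and Klrd1 at 21.6, 23.5 and 84.8. The Klrk1 length of 7183 bases spans all of its annotated exonic sequence, which lowers its value per kb if shorter transcripts were used.

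The members did not vary together among the bulk skin libraries. Replicate 3 had the lowest Gzmc and Nkg7 and, at the same time, the highest Klrd1, Klrk1, Hcst, Ncr1 and Fasl in CPM. To set them against T cell content, counts were divided by the summed counts of Cd3d, Cd3e and Cd3g, the signalling chains of the T cell receptor, which held 4906, 7573 and 6710 counts in bulk skin replicates 1, 2 and 3. Most of this sum was Cd3g, with 3799, 5375 and 5056 counts. The chains were not equally even, since in CPM Cd3e ranged 2.28-fold, Cd3g 1.19-fold and Cd3d 1.08-fold. In bulk tissue fewer cells of a type and less RNA per cell cannot be told apart. Per 1000 CD3 counts, Gzmc stood at 177, 188 and 27.6, a 6.82-fold range. Klrd1 stood at 18.1, 18.4 and 59.0 and thus ranged the other way. Nkg7 at 607, 509 and 415 and Klrk1 at 80.9, 59.2 and 77.5 varied least of the 8 members counted in each bulk library, by 1.46 and 1.37 times. Hcst had 155, 85.6 and 195 per 1000 CD3 counts and Prf1 had 17.1, 47.8 and 34.9, with the low library being replicate 2 for the adaptor and replicate 1 for perforin. Trdc, the constant segment of the delta T cell receptor chain, was as even as Nkg7 and Klrk1, at 180, 226 and 190. Other gamma delta receptor genes did not all stay level. Tcrg-C1 stood at 72.0, 88.7 and 176, a 2.44-fold range with replicate 3 highest, and Trdv4 at 120, 106 and 86.7 with replicate 3 lowest.

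The counts of Gzmc per count of Klrd1 were 9.78 (95% exact counting interval 7.85 to 12.3) in replicate 1, 10.2 (8.60 to 12.3) in replicate 2 and 0.467 (0.390 to 0.558) in replicate 3. The first pair of intervals overlapped and the third lay far below. Per count of Nkg7, Gzmc stood at 0.292, 0.369 and 0.0665, and per count of Hcst at 1.14, 2.20 and 0.142, with replicate 3 lowest each time. With 1 library at each value, these differences have no replicate check.

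**Figure D3:**
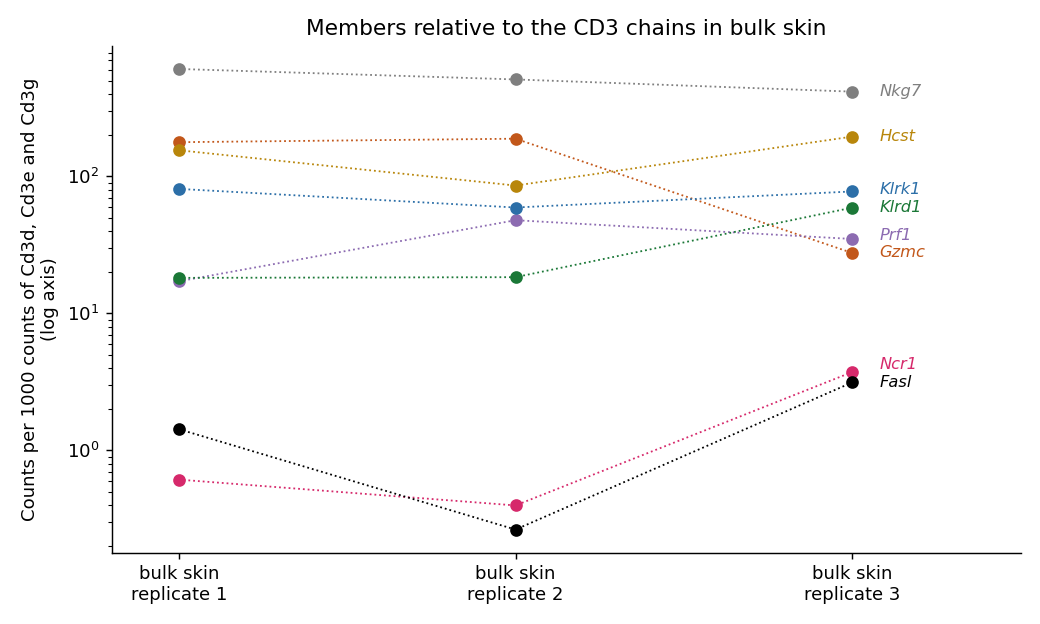
Counts of 8 members per 1000 counts of Cd3d, Cd3e and Cd3g (vertical axis, logarithmic) in the 3 bulk skin libraries, with dotted lines joining the points of 1 gene only as a guide. Gzmc drops from 177 and 188 to 27.6 in replicate 3 while Klrd1 goes from 18.1 and 18.4 to 59.0, and Nkg7 and Klrk1 stay nearly level.

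The markers listed for gamma delta T cells moved with the members. That list also holds the CD3 chains used above for T cell content, so its sum is not specific to gamma delta cells. The sum over all 10 genes was 3282 to 4024 CPM in bulk skin and 5.85, 238 and 58.5 CPM in the NCAM-enriched libraries, where most of it was Thy1 and Cd7. Its receptor genes Trdc, Tcrg-C1, Trdv4 and Tcrg-V5 averaged 331, 193, 172 and 122 CPM in bulk skin, and at most 0.258 CPM in the NCAM-enriched group. Of the 10 listed genes, 8 were called lower. Without any 1 bulk skin library 5 were (Cd3d, Cd3e, Trdc, Trdv4 and Tcrg-C1). Trdv4 and Tcrg-V5, the variable segments, had no NCAM-enriched count and 582 to 801 and 205 to 762 counts in bulk skin. NCAM-enriched replicate 3 held 45 CD3 counts, 44 of them Cd3g, beside its 2 member counts, and replicates 1 and 2 held 2 CD3 counts each beside 0. Alpha beta T cell markers, 6 genes of which Trac was called lower but not without any 1 bulk skin library, summed to 278 to 375 CPM in bulk skin and 82.3 to 125 CPM in the NCAM-enriched group. Langerhans cell markers summed to 8273 to 13827 CPM in bulk skin against 466 to 832 CPM, with Cd207, Cd74 and H2-Aa called lower of 5 and Epcam at a log2 fold change of 0.40 (edgeR adjusted p = 0.707). Of these calls that of Cd207 alone held without any 1 bulk skin library or without NCAM-enriched replicate 1. The part of each cell type in the result was not tested.

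Markers of NK and innate lymphoid cells were scarce in both groups. Of the Ly49 receptor genes in this list, Klra4 and Klra8 were at 0 in all 6 libraries, and Eomes, an NK cell transcription factor, had 0, 6 and 3 counts in bulk skin and 22, 0 and 0 in the NCAM-enriched group. Klrb1c, the gene of NK1.1, had 40, 56 and 26 counts in bulk skin and 44 in NCAM-enriched replicate 3. The 7 markers summed to 40.4 to 56.5 CPM in bulk skin and 51.4 to 103 CPM in the NCAM-enriched libraries, and 0 of the 2 tested were called. Most of this sum was Itga2, with 87 to 137 counts in each of the 6 libraries, a gene that other cells of the epidermis also use.

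The members could be set beside 71 further genes of the same systems that were in the table, in lists named by function. In all, 44 of these were tested, of which 7 were called lower and 0 higher by edgeR. At an unadjusted p under 0.05, 21 of the 44 were lower and 1, Gata3, higher, against 10.2% and 8.73% of all genes tested. DESeq2 called 20 lower and 1 higher, again Gata3, and limma-voom called 22 lower and 0 higher. Of all genes tested, edgeR called 1.55% lower, DESeq2 7.1% and limma-voom 6.45%. For comparison with the list medians below, the log2 fold changes of all 13157 genes had a median of -0.07.

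Granule assembly and release, with 13 genes all tested, had a median log2 fold change of -1.02 and 0 calls by edgeR (4 at an unadjusted p under 0.05, 4 by DESeq2 and 3 by limma-voom, all lower). Srgn, the gene of the proteoglycan serglycin that packs granzymes, had 53, 1 and 1 counts in the NCAM-enriched libraries and 905, 940 and 1764 in bulk skin (log2 fold change -5.05 ± 1.31, edgeR adjusted p = 0.0741). Ctsw, which encodes the lymphocyte protease cathepsin W, had 6, 0 and 144 counts against 1444, 2578 and 1175 (-4.83 ± 1.21, edgeR adjusted p = 0.0697). Without NCAM-enriched replicate 1, Srgn was called lower with a log2 fold change of -9.42. That library held 53 of the 55 NCAM-enriched counts of Srgn and nearly all mast cell marker CPM of its group. Mast cell markers were also present in bulk skin, at 445, 2094 and 1834 CPM in replicates 1, 2 and 3. A link between these markers and the Srgn counts was not tested. Lamp1, a lysosomal membrane protein of most cells, was at 318 ± 135 CPM in the NCAM-enriched group and 370 ± 84.9 CPM in bulk skin (log2 fold change -0.22 ± 0.43, edgeR adjusted p = 0.849).

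The list of NKG2D, CD94 and their adaptors had 5 of 7 genes tested, and its 3 calls by edgeR were the members Klrk1, Hcst and Klrd1 (median -8.27). All 5 were lower at an unadjusted p under 0.05, and all 5 were called lower by DESeq2 and by limma-voom. Tyrobp, whose product DAP12 serves NK and myeloid receptors, had 79, 0 and 41 counts in the NCAM-enriched libraries and 1753, 1401 and 1652 in bulk skin, and missed the threshold (log2 fold change -4.58 ± 1.09, edgeR adjusted p = 0.0636). Tyrobp is also used by Langerhans cells. Klrc1, the gene of the inhibitory CD94 partner NKG2A, had no NCAM-enriched count and 43, 27 and 38 in bulk skin (edgeR adjusted p = 0.0716). Klrc2 and Klrc3, the other NKG2 chains, had 4 and 0 counts in all.

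Of 24 other NK receptor genes, Ncr1 among them, 11 were tested and 5 were called lower by edgeR (Klrb1b, Klrb1f, Cd244a, Cd160 and Cd96), with a list median of -7.27. At an unadjusted p under 0.05, 8 were lower. DESeq2 and limma-voom each called 8 lower, Slamf7 among them. Cd96, an adhesion receptor of T and NK cells, had 0, 0 and 10 counts in the NCAM-enriched libraries and 539, 498 and 566 in bulk skin (log2 fold change -6.82 ± 1.01, edgeR adjusted p = 0.0168). Klrb1b, a lectin-like receptor gene of the NK complex, went from 0 in each NCAM-enriched library to 212, 345 and 409 counts (-11.00 ± 1.09, edgeR adjusted p = 0.00939). About 26.9% of its exonic bases are shared with Gm44511, so its reads cannot be fully told apart. Klrb1f had 1, 0 and 0 counts against 133, 399 and 348 (-8.55 ± 1.11, edgeR adjusted p = 0.0107). The exception with the highest level was Slamf7, with 8, 0 and 0 counts against 114, 155 and 121 (-4.57 ± 1.497, edgeR adjusted p = 0.136). Among the 7 Ly49 receptor genes of the list, Klra4, Klra7, Klra8 and Klra9 had no count in any library. Klra3 had 14, 11 and 6 counts in bulk skin and none in the NCAM-enriched group, Klra5 had 10, 6 and 10 in bulk skin and 20 in NCAM-enriched replicate 1, and Klra1 had 1 in bulk skin.

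No ligand gene of NKG2D was called. Of 9 listed genes 5 were in the table, 3 had counts and 2 were tested, with 0 calls by edgeR, DESeq2 or limma-voom and 0 at an unadjusted p under 0.05 (median -1.45). H60c, a ligand gene known from keratinocytes, was seen in all 6 libraries, with 12, 9 and 54 counts in the NCAM-enriched group and 68, 59 and 129 in bulk skin (log2 fold change -1.26 ± 0.87, edgeR adjusted p = 0.499). Ulbp1 had 0, 0 and 31 counts against 17, 41 and 56 (-1.65 ± 1.63, edgeR adjusted p = 0.648), and H60b had 12 counts, all in bulk skin. The ligand gene H60c thus had counts in the libraries in which the receptor gene Klrk1 had none.

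Among death ligands, their receptors and cytokines, 6 of 8 were tested with 0 calls by edgeR (3 lower at an unadjusted p under 0.05, 2 by DESeq2, 5 by limma-voom) and a median of -3.53. Ifng, the gene of interferon gamma, which was chosen after its values were seen, had no NCAM-enriched count and 75, 78 and 60 in bulk skin and missed the threshold (edgeR adjusted p = 0.0511), though Gm49751 overlaps 25.9% of its exonic sequence. Ltb, which encodes lymphotoxin beta, had 0, 0 and 117 counts against 858, 820 and 336 (log2 fold change -3.91 ± 1.42, edgeR adjusted p = 0.175). Tnf had 60, 0 and 1 counts against 282, 625 and 231 (edgeR adjusted p = 0.277), and Lta had 8, 0 and 0 against 191, 250 and 225 (edgeR adjusted p = 0.0719).

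The transcription factor list did not move as 1 group. Of 12 genes 10 were tested, 2 were called lower (Ets1 and Id2) and 0 higher by edgeR, with a median of 0.31. At an unadjusted p under 0.05, 4 were lower and 1 higher. DESeq2 called Runx3, Ets1, Nfil3 and Id2 lower and Gata3 higher, and limma-voom called the same 4 lower and 0 higher. Id2, a regulator that innate lymphocytes need and many other cells use, was at 149 ± 35.0 CPM in the NCAM-enriched group and 828 ± 274 CPM in bulk skin (log2 fold change -2.48 ± 0.41, edgeR adjusted p = 0.0225). Gata3, which T cells and keratinocytes both use, was at 767 ± 258 CPM and 348 ± 59.7 CPM (1.14 ± 0.40, edgeR adjusted p = 0.158). Ikzf2 was at 141 ± 21.8 and 97.3 ± 19.3 CPM (0.54 ± 0.36, edgeR adjusted p = 0.476). Tbx21, the gene of T-bet, had 17, 3 and 0 counts in bulk skin and none in the NCAM-enriched group, too few to be tested.

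**Figure D4:**
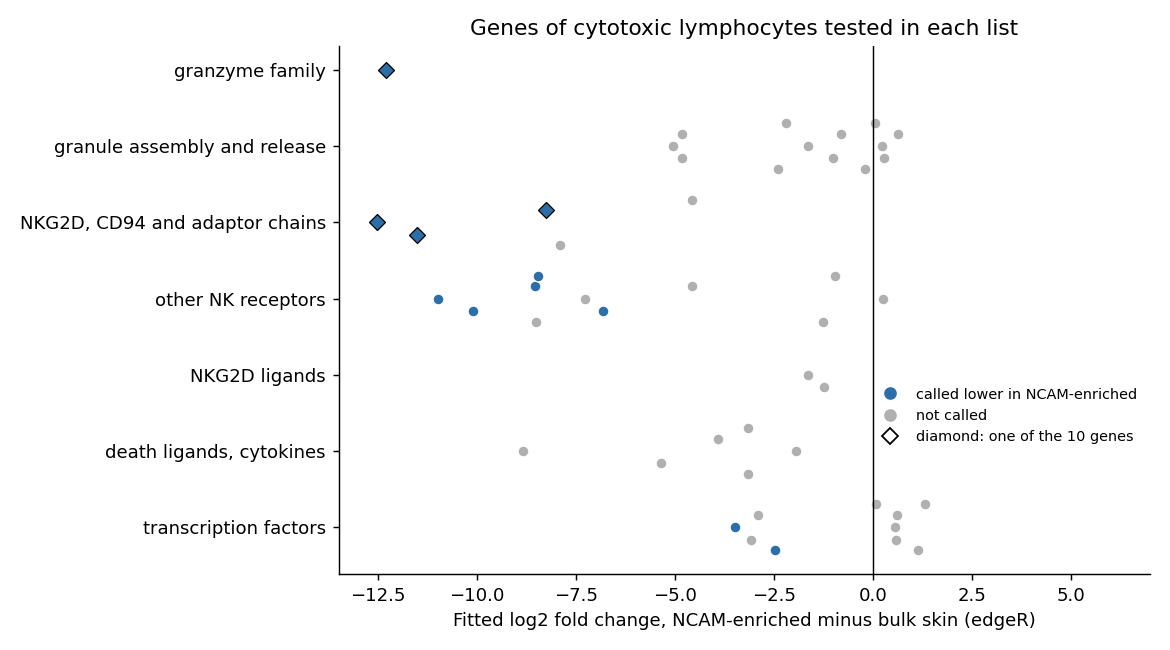
Fitted log2 fold changes (horizontal axis, NCAM-enriched minus bulk skin) of the tested genes in each functional list, 1 point a gene, blue where edgeR called the gene lower and grey where it made no call, with diamonds for the 4 tested members that these lists hold. Receptors and adaptors reach from -12.54 upwards, whereas granule assembly genes, NKG2D ligands and most transcription factors lie nearer to 0 and hold few calls.

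The genes whose profile over the 6 libraries was most like the mean log2 CPM of the 6 tested members were sought among the 8543 genes that averaged 20 CPM or more. They were Cd3d (Pearson's r = 0.9998, n = 6 libraries), Cd160 (0.9995), Trdv4 (0.9994), Rasal3 (0.9993) and Hba-a2 (0.9992). All 5 had no count in the NCAM-enriched libraries, so that r mainly reflects the gap between the groups, which all 6 points share. Cd3d had 766, 1081 and 923 counts in bulk skin and Trdv4 had 590, 801 and 582. The presence of Hba-a2, a globin gene of red blood cells with 808, 879 and 1012 bulk counts, shows that a profile this close was also found for a gene of another cell type.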

How the data were processed

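The authors deposited a table of whole-number read counts for each gene, with no normalization. Before counting with featureCounts they trimmed adapters and poly-A, filtered abundant sequences and aligned the single-end reads of 50 bases to GRCm38 with STAR. Which annotation and strand option were used is not given in the sources. The library method is unstranded, and overlapping genes cannot be separated. No column was left unused.

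From these counts, CPM over TMM-adjusted library sizes, and the group comparison, were computed with edgeR 4.0.16 in R 4.3.3 (filterByExpr for the filter, quasi-likelihood F-test, Benjamini-Hochberg adjustment over 13157 genes). DESeq2 1.42.0, limma-voom (limma 3.58.1), other normalizations and filters, a replicate block and leaving out each library were alternatives. The SE was derived from the F statistic and the log2 fold change. The test was checked on simulated counts. No simulated gene was set to 0 in a group, so the check did not cover that case. A group at 0 gives a bound against 3 counts over the group, and 1 to 3 counts give a ratio of pooled counts scaled by library size with an exact interval. Positions and lengths came from GENCODE M21 (GRCm38), promoter windows from RefSeq. Replicate numbers were not treated as pairs.

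The members and lists were chosen with earlier results of these data known. Named genes were all members, every granzyme gene with a count, the 3 most abundant genes of each functional list, its most abundant gene without the list's call, and the 5 genes of most similar profile. Cell type markers and other genes were named after their values were seen.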

Additional observations from a re-analysis of the deposited data

How the results depend on the processing

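The 6 members kept their direction under the 14 alternatives, and all 6 calls held under 10 of them. Leave-one-out fits called 2 to 6 members, the low end coming without a bulk skin library. With the replicate block, 5 members were called, since Prf1 missed the threshold (adjusted p = 0.0574), and 6 related genes, against 0.699% of all genes called lower. Replicate numbers did not pair the libraries, as deviations from the group means correlated at 0.0226, 0.000250 and -0.00436. Of the related genes that are not members, edgeR called 7 lower, DESeq2 20, limma-voom 22, a fit of all genes with at least 1 count 20, and leave-one-out fits 0 to 20. The low end, 0, was reached without any 1 bulk skin library. Of all genes tested, edgeR called 1.55% lower, DESeq2 7.1% and limma-voom 6.45%. The fit of all genes with at least 1 count called 741 of 27884 lower, and leave-one-out fits 0.0858% to 4.9%. DESeq2 called 1 related gene higher, and leave-one-out fits 0 to 1. The cause of these differences was not tested. The Gzmc share of granzyme counts moved by less than the spread between libraries under length scaling (99.6%), the narrower denominator (99.8%) and leaving out a library, but it lies near its ceiling in every bulk skin library. The shallowest NCAM-enriched library, at 1343190 counts, limits what could be detected, since 3 counts in it are 2.32 CPM.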
